A study of Homo sapiens with 6 samples.

Results

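The kinetochore and spindle checkpoint genes are 47 genes that build the centromere, join it to spindle microtubules and hold the cell in mitosis until every chromosome is attached. They were listed by symbol, but the list was drawn up with earlier results of these data known. All 47 were found among the 38637 genes of the deposited table. All 47 genes had a mean of at least 1 TPM over the 6 libraries and so entered the test across 13980 genes. TPM, the unit of all levels here, corrects the reads of a gene for transcript length and sets the total of every library to 1000000.

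PolyA-Seq, the sequencing of polyadenylated RNA, was carried out in HCCLM3-SR cells, which are HCCLM3 human hepatocellular carcinoma cells selected for resistance to sorafenib. All 6 libraries came from cells given this multikinase inhibitor at 5 µM, so no library shows untreated or sorafenib-sensitive cells. In 3 libraries the cells carried an siRNA against cDCBLD2 for 3 days (the knockdown group), a circular RNA spliced from exons of DCBLD2, and in 3 they carried a control siRNA (the control group). The titles number the libraries of each group from 1 to 3, but no label says whether replicates came from separate cultures, so p-values measure the spread between these libraries, which may be technical.

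DCBLD2, the host gene of the targeted circular RNA, measured 58.1, 25.9 and 31.6 TPM with the cDCBLD2 siRNA and 71.5, 48.5 and 50.7 TPM with the control siRNA (two-sided exact permutation test, p = 0.3). Its log2 fold change was -0.61, with a limma adjusted p of 0.253, and of 0.0139 with the replicate number as a block, the second fit used below. A value per gene cannot separate the circular from the linear RNA. Whole reads recovered from the ratios of TPM values gave lower bounds of 17489227 to 23058947 reads per library, and the members had between 45 and 3731 reads per library. Of 15 hepatocyte markers 8 reached a mean of 1 TPM, with a summed level of 165 to 168 TPM after knockdown and 144 to 159 TPM in control cells. ALB was at 0.607 and 1.11 TPM and GPC3 at 0.0449 and 0.0389 TPM in the knockdown and control means, so defining hepatocyte markers were at or near 0 in this line. Of 8 markers of blood, stromal and endothelial cells 4 reached a mean of 1 TPM (summed level 116 to 136 TPM after knockdown, 98.2 to 120 TPM in control), with CD68 at 107 TPM and CD3E at 0 TPM, and their part in the results below was not tested.

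The kinetochore is a layered structure. CENP-A, a histone H3 variant, marks the centromere, the inner proteins of the constitutive centromere-associated network (CCAN) bind CENP-A chromatin, and the outer KNL1, MIS12 and NDC80 complexes grip microtubule ends. A fibrous corona captures microtubules early in mitosis, and unattached kinetochores recruit the checkpoint proteins that restrain the anaphase-promoting complex. Many of these genes are transcribed mainly in G2 and M phase, and many of their promoters carry CCAAT boxes and CHR elements.

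The study places miR-345-5p between cDCBLD2 and the mRNA of TOP2A, which is not a member. Its mature sequence is shown with the seed in capitals (bases 2 to 8 from the 5′ end). The microRNA sequence is that of RefSeq at chr14:100307876-100307897 on the plus strand of GRCh38.p14.
hsa-miR-345-5p: gCUGACUCcuaguccagggcuc
A perfect match to this seed, GAGTCAG, stood in the coding sequence of 6 of 47 members (12.8%), beside 13.1% of the 11808 genes expressed at 1 TPM or more on average that had a coding sequence in GENCODE release 29. Coding sequences of the members had a median length of 1059 bases, shorter than the 1392 bases over those genes. The coding sites are shown with 11 bases on each side and the match in capitals, because the members with the lowest values can be read against them.
CENPF: gcgttccaggcGAGTCAGatcaaggagaa
BUB1: agcttccagtgGAGTCAGtgcacatttta
NUF2: ttgagagtgatGAGTCAGaactgaagaaa
KNL1, exon 5: aaactctcgtcGAGTCAGctttgcagata
KNL1, exon 22: tcacctttgaaGAGTCAGttgttggtttc
HJURP: cagaccaggaaGAGTCAGttgcttgggcc
CDCA8: tcaagcaaattGAGTCAGacaggcagaac
On GRCh38 these matches lie at chr1:214632563-214632569 in exon 10 of 20 of CENPF (plus strand), at chr2:110655760-110655766 in exon 16 of 25 of BUB1 (minus strand) and at chr1:163347796-163347802 in exon 12 of 14 of NUF2 (plus strand). Those of KNL1 lie at chr15:40608884-40608890 and chr15:40652096-40652102 (plus strand), that of HJURP at chr2:233847414-233847420 in exon 5 of 9 (minus strand) and that of CDCA8 at chr1:37692928-37692934 in exon 2 of 10 (plus strand). In the 3′ UTR, 3 of 47 members (6.38%) held a match, namely ZW10, BUB3 and CDCA8, beside 9.15% of the same genes. CENPE and BUB1B, which followed CENPF in the order of log2 fold changes, held no match in either region.

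All 47 members had a lower mean after cDCBLD2 knockdown in the TPM values as deposited, although 4 members turned positive when each library was scaled to its upper quartile (CENPO, CENPT, PMF1 and MAD1L1), 4 with a length offset, 5 with a GC offset and 5 in limma-voom on recovered reads. Among all genes tested, 62.4% had a negative log2 fold change. The median log2 fold change on log2(TPM + 1) was -0.43 over the members and -0.08 over all genes tested, and the members ranged from -1.45 (CENPF) to -0.0011 (MAD1L1). On this scale the change of a gene of low level is understated. In bulk RNA, fewer cells in mitosis and less mRNA per mitotic cell cannot be told apart.

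Without regard to replicate number, limma's moderated test called 0 of 47 members lower and 0 higher at an adjusted p under 0.05, while 0.629% of all genes were lower. The smallest limma adjusted p of a member was 0.0622 (CENPH). An unadjusted limma p under 0.05 was found in 13 of 47 members, beside 3654 of the 13980 genes tested. Limma-voom on the recovered reads also called 0 members. The knockdown libraries all lay below the control libraries in 12 of 47 members (CENPA, CENPH, MIS12, CENPE, CENPF, KNTC1, BUB1, BUB1B, BUB3, INCENP, AURKB and SGO1), beside 22.3% of all genes, and in no member did they all lie above. The members' share of 25.5% was thus near that over all genes.

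Replicate 1 stood high in both groups. It exceeded the mean of replicates 2 and 3 in 44 members after knockdown (median log2 difference 0.54) and in 46 members in control cells (0.52), against medians of 0.08 and 0.04 over all genes. In 30 members knockdown replicate 1 lay above control replicates 2 and 3. MKI67, a general marker of proliferating cells, had the same order, at 42.3, 22.8 and 20.8 TPM after knockdown and 83.1, 45.2 and 52.4 TPM in control cells. What set replicate 1 apart was not tested, and the labels give only its number.

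Libraries sharing a replicate number were then paired. The knockdown library was lower in 46, 42 and 46 of 47 members in pairs 1, 2 and 3, beside 60.8%, 60.1% and 62.2% of all genes. The median log2 changes were -0.37, -0.38 and -0.47 over the members and -0.08, -0.07 and -0.11 over all genes. In 42 members (89.4%) the knockdown library was lower in all 3 pairs, beside 43.7% of all genes. The other 5 members were CENPO, CENPQ, CENPT, PMF1 and MAD1L1. The summed level of the members was 1269, 995 and 956 TPM in the knockdown libraries and 1695, 1225 and 1240 TPM in the control libraries.

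With the replicate number as a block, limma called 35 of 47 members lower and 0 higher at an adjusted p under 0.05, beside 25.0% of all genes lower. CENPF, CENPE and BUB1B also passed a log2 fold change of -1, as did 0.751% of all genes. The count of 35 became 32 without pair 1, 16 without pair 2 and 8 without pair 3. The share of all genes called lower became 28%, 7.75% and 3.19% in the same order. The 12 members that missed the threshold with the block were CENPO, CENPP, CENPQ and CENPT of the inner kinetochore, SPC24, SPC25, NSL1, PMF1, ZWINT and SKA1 of the outer kinetochore, MAD1L1 and AURKB.

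**Figure D1:**
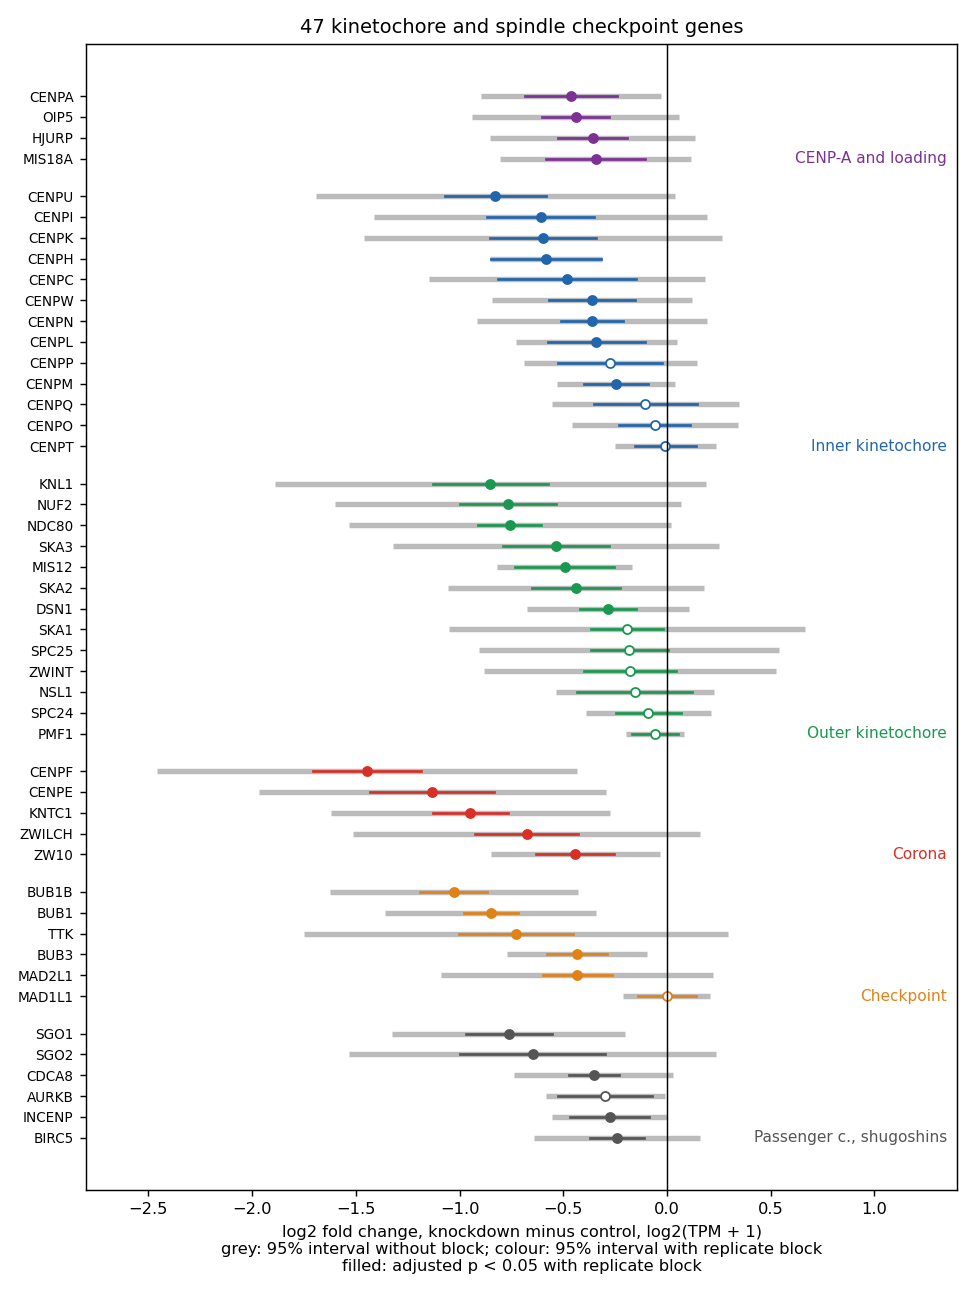
Log2 fold change on log2(TPM + 1), knockdown minus control, of each of the 47 members grouped by role, with the 95% interval without a block in grey and with the replicate block in colour (n = 3 libraries a group). Filled points mark the 35 members with a limma adjusted p under 0.05 with the block, and every point lies at or left of 0.

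The corona had the lowest median of the 6 role groups, at -0.95, and all 5 of its members were called with the block. Differences between role groups were not tested. CENPF, a large coiled-coil protein of the corona, gave 12.3, 3.91 and 6.11 TPM in replicates 1, 2 and 3 after knockdown, where control cells gave 32.0, 15.0 and 16.8 TPM. The groups did not overlap, and the highest knockdown value was that of replicate 1. The means were 7.44 ± 4.35 TPM (SD, n = 3) and 21.3 ± 9.33 TPM (SD, n = 3), so knockdown cells held 35.0% of the control level. Its log2 fold change was -1.45 with a standard error of 0.42 (limma adjusted p = 0.107), and the block brought the error to 0.10 (limma adjusted p = 0.00436).

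CENPE, the kinesin that carries chromosomes toward the spindle equator, was at 3.06, 0.986 and 1.05 TPM after knockdown and at 6.96, 3.83 and 3.52 TPM in control cells. The groups did not overlap, and knockdown cells held 35.6% of the control mean. The fit gave -1.13 ± 0.35 (log2 fold change ± SE, limma adjusted p = 0.116), with a limma adjusted p of 0.00504 under the block.

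KNTC1, ZW10 and ZWILCH form the RZZ complex, which brings dynein and the checkpoint proteins MAD1 and MAD2 to kinetochores. KNTC1 was at 15.6, 7.76 and 9.69 TPM after knockdown and at 28.4, 16.8 and 20.4 TPM in control cells, with no overlap (log2 fold change -0.95, limma adjusted p = 0.109, and 0.00436 with the block). ZW10 was at 18.2, 13.9 and 12.3 TPM and at 23.9, 18.1 and 19.0 TPM, where knockdown replicate 1 lay just above control replicate 2 (-0.44, limma adjusted p = 0.167, and 0.0114 with the block). ZWILCH had a log2 fold change of -0.68 (limma adjusted p = 0.00842 with the block).

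Of the 6 checkpoint genes 5 were called with the block, with a median of -0.58 over the group. BUB1B, which encodes BUBR1, a part of the inhibitor of the anaphase-promoting complex, was at 29.3, 17.6 and 16.9 TPM after knockdown and at 56.2, 37.0 and 38.4 TPM in control cells. The groups did not overlap, with means of 21.3 ± 6.95 TPM (SD, n = 3) and 43.9 ± 10.7 TPM (SD, n = 3). The fit gave -1.03 ± 0.25 (log2 fold change ± SE, limma adjusted p = 0.0824), and the block brought the SE to 0.064 (limma adjusted p = 0.00436). Its exons overlap those of the read-through gene BUB1B-PAK6 over 10.7% of its transcript on the same strand, so its reads may be shared.

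BUB1, the kinase that marks centromeric histone H2A and recruits shugoshins, was at 34.2, 22.9 and 22.7 TPM after knockdown and at 61.6, 41.1 and 43.4 TPM in control cells. The groups did not overlap, and the log2 changes within pairs were -0.83, -0.81 and -0.91. The fit over all 6 libraries gave -0.85 ± 0.21 (log2 fold change ± SE, limma adjusted p = 0.0859), with a limma adjusted p of 0.00436 under the block. TTK, the kinase MPS1 that starts checkpoint signalling, was at -0.73 (limma adjusted p = 0.00882 with the block), BUB3, a WD-repeat partner of BUB1 and BUBR1, at -0.43 (0.00696) and MAD2L1, the MAD2 protein that closes on CDC20, at -0.43 (0.00919).

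MAD1L1, the kinetochore anchor of MAD2, had the highest log2 fold change of the 47 members. It was at 31.4, 34.5 and 33.6 TPM after knockdown and at 30.3, 33.8 and 35.6 TPM in control cells, with overlapping groups. Its log2 fold change of -0.0011 (limma adjusted p = 0.989 with the block, 95% interval -0.14 to 0.14) turned positive under upper-quartile scaling, the length offset and limma-voom. Its transcript had the highest GC content of the 47 members, at 62.6%, and it was at -0.13 after the GC offset (limma adjusted p = 0.14 with the block).

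**Figure D2:**
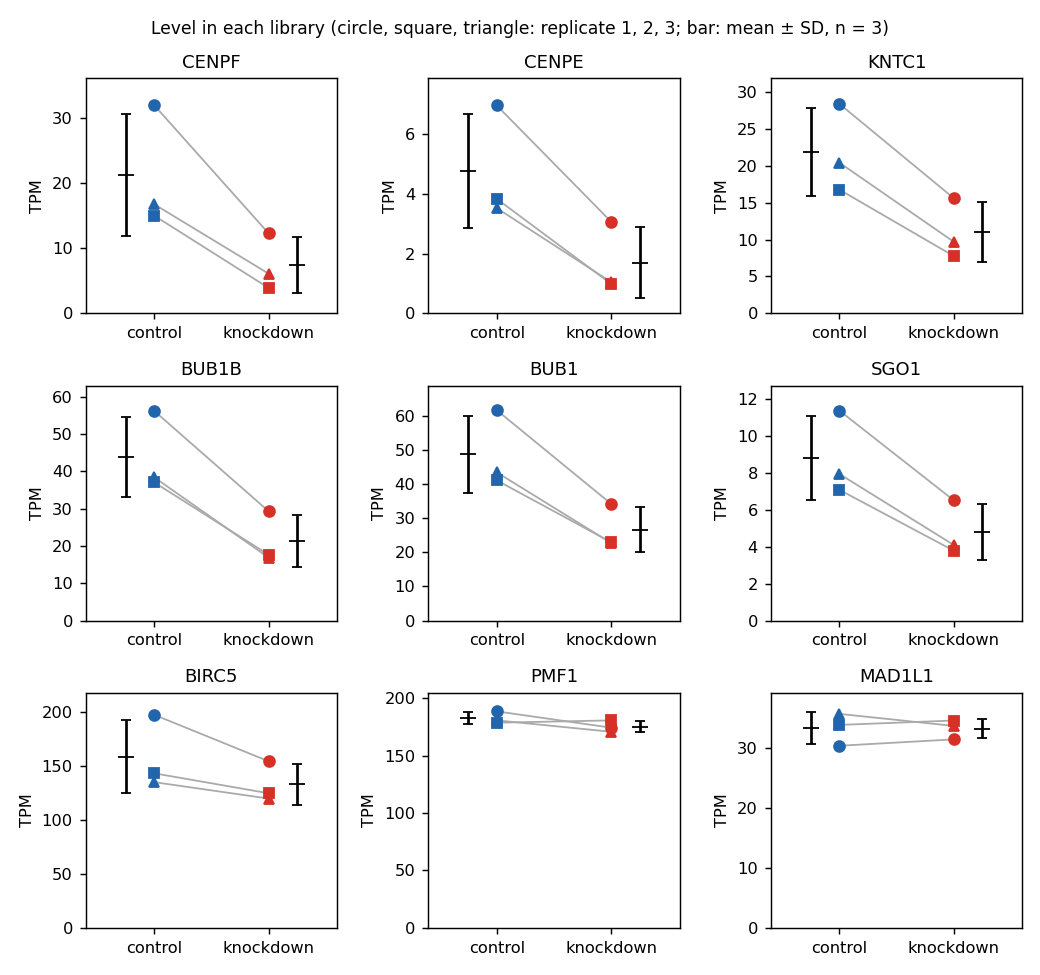
Level in TPM (linear axes from 0) of 9 members in each library, with lines joining libraries of the same replicate number and bars giving the mean ± SD (n = 3). CENPF, CENPE, KNTC1, BUB1B, BUB1 and SGO1 are lower after knockdown in every pair, BIRC5 is lower by less, and PMF1 and MAD1L1 overlap, while replicate 1 is the highest library of both groups in 7 of the 9 panels, all but PMF1 and MAD1L1.

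The chromosomal passenger complex corrects faulty microtubule attachments, and shugoshins protect centromeric cohesion. Of these 6 genes 5 were called with the block, with a median of -0.33. SGO1 was at 6.50, 3.78 and 4.09 TPM after knockdown and at 11.4, 7.08 and 7.93 TPM in control cells, without overlap (log2 fold change -0.76, limma adjusted p = 0.116, and 0.0054 with the block). SGO2 was at 4.60, 1.34 and 1.76 TPM and at 6.17, 3.36 and 3.45 TPM, and knockdown replicate 1 lay above control replicates 2 and 3 (-0.65, limma adjusted p = 0.31, and 0.0206 with the block). BIRC5, which encodes survivin, was at 154, 124 and 120 TPM and at 197, 143 and 135 TPM with overlapping groups (-0.24, limma adjusted p = 0.395, and 0.0199 with the block).

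Within the passenger complex itself the log2 fold changes lay close to each other. CDCA8 (borealin) was at -0.35, INCENP (the scaffold) at -0.28, BIRC5 at -0.24 and AURKB (the Aurora B kinase) at -0.30. AURKB did not overlap between groups, at 88.6, 86.9 and 89.6 TPM after knockdown and 131, 99.3 and 98.8 TPM in control cells, yet its limma adjusted p with the block was 0.0522. The 3 pairs gave -0.56, -0.19 and -0.14.

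All 4 genes of CENP-A and its loading were called with the block, with a median of -0.40 and a narrow range from -0.46 to -0.34. CENPA was at 43.2, 39.6 and 31.6 TPM after knockdown and at 67.1, 46.1 and 46.7 TPM in control cells, without overlap (-0.46, limma adjusted p = 0.172, and 0.0152 with the block). OIP5, a subunit of the MIS18 complex that licenses CENP-A deposition, was at 25.0, 18.4 and 17.3 TPM and at 36.4, 23.3 and 24.3 TPM (-0.44, limma adjusted p = 0.233, and 0.00851 with the block). MIS18A, of the same complex, was at 7.90, 6.28 and 5.24 TPM and at 10.7, 7.19 and 7.66 TPM (-0.34, limma adjusted p = 0.3, and 0.0413 with the block). In OIP5 and MIS18A knockdown replicate 1 overlapped the control range, and antisense genes overlap 38.0% of the OIP5 transcript, as they do 21.1% of that of SGO1 and 17.3% of that of CENPU, so reads of these genes may be shared. HJURP, the CENP-A chaperone, was at -0.36 (limma adjusted p = 0.0139 with the block).

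In the CCAN 9 of 13 genes were called with the block and the median was -0.36. CENPU, which helps dock Polo-like kinase 1, was lowest, at 32.4, 14.8 and 13.6 TPM after knockdown and 48.6, 28.2 and 28.8 TPM in control cells (-0.83 ± 0.36 SE, limma adjusted p = 0.206, and 0.00592 with the block). CENPI was at 7.11, 2.87 and 3.37 TPM and at 9.99, 5.47 and 5.86 TPM (-0.61, limma adjusted p = 0.292, and 0.0111 with the block). In both genes knockdown replicate 1 lay inside the control range, while each pair was lower. CENPH, a partner of CENPI, was the 1 inner kinetochore gene whose groups did not overlap, at 21.1, 25.2 and 21.3 TPM and 38.6, 31.5 and 32.7 TPM (-0.58, limma adjusted p = 0.0132 with the block).

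CENPT, which binds the NDC80 complex directly, was at 27.2, 24.3 and 25.4 TPM after knockdown and at 28.99, 23.5 and 25.0 TPM in control cells. Its groups overlapped, with a log2 fold change of -0.0077 (95% interval with the block -0.16 to 0.14). The remaining CCAN genes that were called with the block were CENPK (-0.60), CENPC (-0.48), CENPW (-0.36), CENPN (-0.36), CENPL (-0.34) and CENPM (-0.25). CENPC, which links CENP-A nucleosomes to the MIS12 complex, had the lowest level of the 47 members (mean 1.52 TPM). CENPP (-0.27), CENPQ (-0.10) and CENPO (-0.06) missed the threshold, and antisense genes overlap 44.8% of the CENPP transcript and 39.4% of that of CENPO.

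In the outer kinetochore 7 of 13 genes were called with the block, with a median of -0.29. KNL1, the scaffold that BUB1 and BUB3 bind, was at 4.08, 1.03 and 1.72 TPM after knockdown and at 8.08, 2.99 and 3.54 TPM in control cells (-0.85 ± 0.43 SE, limma adjusted p = 0.26, and 0.00675 with the block). NUF2 was at 12.7, 5.54 and 6.32 TPM and at 20.6, 11.8 and 10.7 TPM (-0.77, limma adjusted p = 0.218, and 0.00624 with the block). Knockdown replicate 1 lay within the control range in both. PMF1, a MIS12 complex subunit with the highest level of the 47 members, was at 174, 181 and 171 TPM and at 188, 179 and 181 TPM with overlapping groups (-0.06, 95% interval with the block -0.17 to 0.051). Its exons share 52.9% of the transcript with the read-through gene PMF1-BGLAP.

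The 4 subunits of the NDC80 complex gave 2 pairs of values, a contrast chosen after they were seen. NDC80 and NUF2 form the microtubule-binding end, and SPC24 and SPC25 the end that faces the centromere. NDC80 was at 26.0, 13.0 and 14.0 TPM after knockdown and at 42.4, 22.8 and 25.5 TPM in control cells (-0.76, limma adjusted p = 0.00436 with the block). SPC25 was at 13.9, 7.83 and 7.76 TPM and at 16.2, 9.34 and 8.41 TPM (-0.18, limma adjusted p = 0.114 with the block), and SPC24 had a log2 fold change of -0.09 (0.301). The GC contents of the transcripts were 40.1% for NDC80, 38.8% for NUF2, 40.0% for SPC25 and 53.4% for SPC24, and SPC25 was at 0.21 after the GC offset.

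The summed TPM of NDC80 and NUF2 over that of SPC24 and SPC25 was 1.04, 0.663 and 0.744 in the knockdown libraries and 1.49, 1.17 and 1.22 in the control libraries. The groups of this ratio did not overlap, and 3 against 3 libraries cannot give an exact permutation p below 0.1. The mean log2 fold changes of the subunit pairs differed by -0.63, and by -0.41 after the GC offset. The other ratios were not planned before the values were seen either, so a lack of overlap in them is a description and not a test. KNTC1 over ZW10 was 0.857, 0.560 and 0.788 after knockdown and 1.19, 0.927 and 1.07 in control cells. BUB1B over BUB3 was 1.13, 0.896 and 0.795 against 1.58, 1.32 and 1.38. MIS12 over PMF1 was also lower after knockdown (0.0344 ± 0.0058 against 0.0485 ± 0.00362, SD, n = 3), but the difference of their log2 fold changes went from -0.43 to 0.016 with the GC offset.

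**Figure D3:**
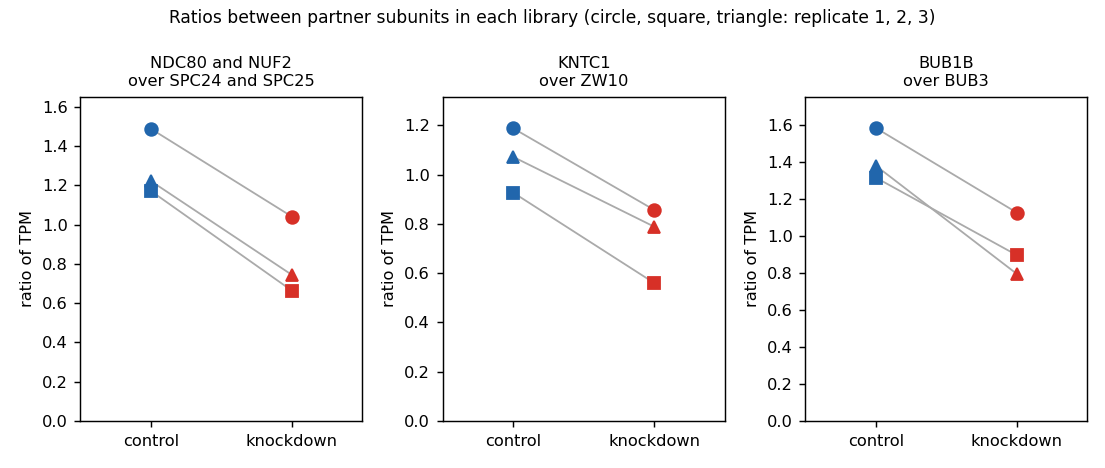
Ratio of TPM values between partner subunits in each library, on linear axes from 0, with lines joining libraries of the same replicate number. In all 3 ratios the 3 knockdown libraries lie below the 3 control libraries, for example 0.663 to 1.04 against 1.17 to 1.49 for NDC80 and NUF2 over SPC24 and SPC25. The ratios were not planned before the values were seen.

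Of the other outer kinetochore genes, SKA3 (-0.53) and SKA2 (-0.44) of the SKA complex, which tracks microtubule ends, and MIS12 (-0.49) and DSN1 (-0.29) of the MIS12 complex were called with the block. SKA1 (-0.19), NSL1 (-0.16) and ZWINT (-0.18), a KNL1 partner, were not. The 95% interval of ZWINT was -0.88 to 0.52 without the block and -0.40 to 0.044 with it, so the value of MIS12 lay inside the former and outside the latter.

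The log2 fold change of the members followed the GC content of their transcripts (Spearman's rho 0.60 over 47 genes, which share the same libraries), as it did over 13163 genes tested (0.64). The 23 members with a GC content below the median of 42.5% had a median log2 fold change of -0.61, and the other 24 had -0.29. A GC offset was therefore applied. For each library it fits a smooth curve on GC content to the genes' deviations from their means over the 6 libraries, and subtracts it. It moved the members' median to -0.21 and the rho to -0.01, and the medians below and above the members' middle GC content to -0.21 and -0.19. The part of base composition in the difference between the groups was not tested further.

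With the GC offset and the block, 21 of 47 members were lower and 0 were higher, beside 13.4% of all genes lower. These were CENPA, HJURP and OIP5, then CENPU and CENPM of the 13 CCAN genes, then NDC80, NUF2, KNL1 and PMF1 of the outer kinetochore. They also included CENPF, CENPE, KNTC1 and ZWILCH, BUB1B, BUB1 and TTK, and SGO1, BIRC5, INCENP, CDCA8 and AURKB. CENPF was at -1.07 (limma adjusted p = 0.00428), BUB1B at -0.74 (0.00351), CENPE at -0.69 (0.00888), KNTC1 at -0.56 (0.00563) and BUB1 at -0.54 (0.0058), so the corona and checkpoint genes with the lowest values as deposited were also lowest with the offset. AURKB, at -0.35 (limma adjusted p = 0.0346), and PMF1, at -0.15 (0.0471), passed with the offset and not without it. Positive values were then found in CENPQ (0.32), NSL1 (0.27), SPC25 (0.21), SKA1 (0.10) and ZWINT (0.04), none of which passed the test.

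The members with a miR-345-5p seed match in the coding sequence, shown above, were CENPF (-1.45), KNL1 (-0.85), BUB1 (-0.85), NUF2 (-0.77), HJURP (-0.36) and CDCA8 (-0.35). Their median log2 fold change was -0.81, and that of the 41 members without a match was -0.43, a description with no test. With the GC offset the 6 values were -1.07, -0.43, -0.54, -0.35, -0.25 and -0.32, in the same order, beside -0.21 as the median of all 47 members. Their coding sequences had 9342, 7026, 3255, 1392, 2244 and 840 bases. Over the 47 members, Spearman's rho of log2 fold change with transcript length was -0.36. The part of length and base composition in this contrast was not tested. All 6 were called with the block, as were 29 of the 41. KNL1, the member with 2 sites, and NUF2, with 1, had close values.

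RefSeq promoter windows, here the 250 bases before a transcription start, were held for 38 of 47 members in 44 windows. CENPF, the member with the lowest value, and CENPW had windows that touch no annotated exon, and both are shown with CCAAT boxes in capitals (ATTGG on the other strand). They lie at chr1:214602945-214603194 and chr6:126339865-126340114 on the plus strand of GRCh38.p14.
CENPF: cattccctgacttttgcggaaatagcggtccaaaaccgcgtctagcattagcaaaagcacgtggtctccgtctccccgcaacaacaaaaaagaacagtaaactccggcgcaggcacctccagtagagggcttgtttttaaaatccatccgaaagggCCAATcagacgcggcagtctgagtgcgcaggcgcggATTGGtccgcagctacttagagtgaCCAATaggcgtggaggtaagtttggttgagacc
CENPW: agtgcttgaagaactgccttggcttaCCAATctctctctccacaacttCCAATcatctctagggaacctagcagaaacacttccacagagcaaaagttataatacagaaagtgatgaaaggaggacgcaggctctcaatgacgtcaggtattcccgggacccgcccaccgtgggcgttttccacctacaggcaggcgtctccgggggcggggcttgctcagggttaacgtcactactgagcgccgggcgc
The CENPF boxes begin 94, 58 and 33 bases before the start. CCAAT or its reverse complement was found in 63.6% of the members' windows, beside 32.0% of all 35116 RefSeq windows and 32.8% of those of genes expressed at 1 TPM or more on average. A CHR element (TTTGAA or TTCGAA, either strand) was found in 22.7%, beside 14.3% and 10.2%, and BUB1B held one 23 bases before its start. An E2F motif (TTTGGCGC, TTTCCCGC or TTTCGCGC, either strand) was found in 11.4%, beside 2.32% and 3.59%. Both CCAAT and CHR were found in 20.5% of the members' windows, beside 5.05% and 3.97%.

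The 25 members with a CCAAT box in a window had a median log2 fold change of -0.43, with 18 called with the block, and the 13 without one had -0.53, with 8 called. The 9 members with a CHR element had -0.36, with 7 called, and the 29 without one had -0.44, with 19 called. The order was reversed for the E2F motif. The 4 members with it had -0.48, with 4 called, and the 34 without it had -0.36, with 22 called. These differences were not tested. A match is a description of the letters and not of factor binding.

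Of 25 kinetochore and spindle genes that were not members, 18 were lower with the block and 0 were higher, with a median of -0.43, from TPR (-1.29), a nuclear pore protein that binds MAD1, to MAD2L1BP (0.18), the p31comet protein that helps silence the checkpoint. With the GC offset as well, 16 of the 25 were lower. CKAP5, a microtubule polymerase of the spindle, was the 1 gene of this list called without the block (-1.001, limma adjusted p = 0.0451). CKAP5, chosen after its value was seen, had means of 35.3 ± 6.43 TPM after knockdown and 71.3 ± 7.62 TPM in control cells (SD, n = 3).

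Of 24 genes of the anaphase-promoting complex and mitotic exit, on which the checkpoint acts, 15 were lower and 1 was higher with the block, with a median of -0.36, from ANAPC1 (-0.87), a scaffold subunit, to FZR1 (0.22), the CDH1 activator. PTTG1 (securin), chosen after its value was seen, was called without the block as well, at 65.2 ± 5.83 TPM against 106 ± 8.08 TPM (SD, n = 3, log2 fold change -0.70, limma adjusted p = 0.0451). With the GC offset and the block 9 of the 24 were lower. Of 30 genes of origin licensing and the replication fork, which act in G1 and S phase, 20 were lower with the block (median -0.29, from POLA1 at -0.95 to CDT1 at -0.08) and 11 with the offset as well. The members' shares, 35 of 47 and 21 of 47, were not tested against these lists.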

How the data were processed

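The authors deposited TPM values per gene. The submitters' processing notes name fastp 0.20.1, HISAT2 2.1.0, StringTie 2.0 and hg38 without settings, and the study's methods name DESeq2. Strand use in counting is not given in the sources used here, so genes with antisense or read-through partners are uncertain. The members and all gene lists were chosen with earlier results of these data known. Values in every library are given for the 2 lowest and the 1 highest log2 fold change of each role group and for any member past both thresholds (18 members), and for KNTC1, CENPH, NDC80, SPC25 and AURKB, chosen after their values were seen.

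A mean of 1 TPM was required, and limma 3.58.1 (R 4.3.3, trended prior variance, Benjamini-Hochberg adjustment) was run on log2(TPM + 1). Same-numbered libraries deviated together from their group means (correlations 0.56, 0.343 and 0.362 for numbers 1, 2 and 3, all over 0.1), so the number from the titles was used as a block in a second fit. Reads were recovered as the smallest whole numbers in the ratio of a gene's TPM values, within a tolerance of 0.02, for all 17285 genes above 0 in every library, and for 6.71% when library factors were moved by up to 10%. They are lower bounds on depth. The fits were tested on simulated data. The simulated libraries had no replicate effect and no trend with GC content, so they cannot decide between the fits used here. GC content and length came from GENCODE release 29 (94.2% of genes tested), with loess offsets at a span of 0.5. RefSeq promoter windows were held for 38 members. CENPM, BIRC5, TTK, KNTC1, CENPH, MIS18A, CENPL, KNL1 and BUB3 had none.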

Additional observations from a re-analysis of the deposited data

How the results depend on the processing

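No member was called higher in any fit. The count of members lower at the adjusted p was 0 with upper-quartile scaling, no filter, a mean of at least 5 TPM (40 members tested), a pseudocount of 0.1, the GC offset, the length offset and limma-voom, each without the block, and 0 to 20 with one library left out. The 20, of which 11 also passed a log2 fold change of -1 (0 to 11 over the libraries), came without knockdown replicate 1. In that fit 19.8% of all genes were lower. The other 5 omissions called 0 members and 0 of all genes lower. With the replicate block the count of members was 35 (3 past both thresholds), with the GC offset and block 21 (1), with the length offset and block 31 (1), and with limma-voom and block 30 (3). The shares of all genes lower in these fits were 25.0%, 13.4%, 17.5% and 20.5%, in the same order. Chosen after seeing the data, upper-quartile scaling with the block gave 29 (2), a pseudocount of 0.1 with the block 35 (5), and the block without pair 1, 2 or 3 gave 32 (4), 16 (3) and 8 (2). For those fits the shares of all genes lower were 19.4%, 24.6%, 28%, 7.75% and 3.19%, in the same order. The median of -0.43 became -0.37 with upper-quartile scaling, -0.21 with the GC offset, -0.34 with the length offset, -0.36 with limma-voom and -0.35 with limma-voom and block, and ranged from -0.56 (without knockdown replicate 1) to -0.24 (without control replicate 1) with one library left out. Non-overlapping members numbered 12 to 41 with one library left out, the highest without knockdown replicate 1. With fewer libraries any gene separates more easily, and the share over all genes was not computed for these omissions. The range is therefore not a result about the members. The cause of these shifts was not tested.

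Of the 23 members given in every library, CENPT, PMF1, MAD1L1 and SPC25 changed sign. CENPT was at 0.061 with upper-quartile scaling and 0.048 with the length offset (each with and without block), 0.093 with limma-voom (with and without block), 0.033 with the block without pair 1, and -0.070 to 0.074 with one library left out. PMF1 was at 0.012 with upper-quartile scaling (with and without block), and at 0.041 with limma-voom and 0.040 with limma-voom and block. MAD1L1 was at 0.068 with upper-quartile scaling and 0.087 with the length offset (each with and without block), 0.098 with limma-voom and 0.096 with limma-voom and block, 0.039 with the block without pair 3, and -0.064 to 0.049 with one library left out. SPC25 was at 0.21 with the GC offset (with and without block) and -0.43 to 0.087 with one library left out. None of these values passed the test.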
